A study of Mus musculus with 6 samples.

Results

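A set of 38 genes of glucose breakdown and of the response to low oxygen was examined in mouse embryonic fibroblasts (MEFs) with and without the mitochondrial protease YME1L. The genes were listed by name for their roles, with earlier results of these data known. They comprised glucose transporters, the enzymes from hexokinase to lactate dehydrogenase, lactate transporters, kinases that set the flux through the pathway, oxygen sensors and targets of hypoxia-inducible factor (HIF). They took 39 of the 51499 loci of the count table, because Aldoa was listed at 2 loci, and Hif1a shared a single merged locus with AC124712.1 and Snapc1. Counts of that locus cannot be divided among the 3 genes. Of the 39 loci, 38 held enough fragments to be tested (in at least 3 libraries, a level worth 10 fragments at the median library size), and Car9 did not.

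Poly(A) RNA was sequenced from 3 independent cultures of each genotype. Both genotypes came from fibroblasts of Yme1l loxP/loxP embryos, made immortal in culture by SV40 large T antigen. All of the cells had received Cre, and the genotype of each clone was read afterwards. Wild-type (WT) cells, labelled Yme1l fl/fl, kept the floxed alleles intact, and Yme1l-/- cells had lost them. How many clones stand behind the 3 cultures of a genotype is not given in the sources used here, so the p-values measure the spread between cultures and not between clones. Cells were grown in glucose-rich medium with pyruvate, and no sample was labelled as hypoxic.

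Glycolysis turns glucose into pyruvate in the cytosol. Pyruvate is either carried into mitochondria, where pyruvate dehydrogenase kinases decide whether it is oxidized, or reduced to lactate and exported. Most of the enzymes exist as several isozymes from different genes. Under low oxygen the prolyl hydroxylases that mark HIF-1α for destruction by the von Hippel-Lindau ubiquitin ligase slow down, and the stabilized factor raises transcription of many glycolytic genes together with genes for angiogenesis, mitophagy and collagen modification. HIF-1α is controlled mainly at the protein level, which RNA sequencing does not measure.

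The WT libraries held 33180867 to 34012520 counted fragments and the Yme1l-/- libraries 34624075 to 49351107. The unit of level used below is CPM, the fragments of a locus for each 1000000 of the library after scaling. The targeted gene Yme1l1 (mm10, chr2:23156369-23199260) stood at 191, 192 and 183 CPM in WT and at 37.9, 38.9 and 40.6 CPM in Yme1l-/- libraries, 20.8% of the WT level. Of 13 fibroblast markers 10 were tested, of which 1 rose and 8 fell, and their summed level was 11440 to 12020 CPM in WT and 7082 to 7577 CPM in Yme1l-/- libraries. Among them, Col1a1 (1616 and 2177 CPM), Vim (2605 and 1040 CPM), Pdgfrb (73.0 and 57.8 CPM) and Pdgfra (13.5 and 10.4 CPM) were expressed in both genotypes (mean in WT and in Yme1l-/-), while Thy1, Lum and Fap were at or near 0 in both. Col3a1 and Dcn were among the markers that fell, from 159.5 to 28.7 CPM and from 3.66 to 0.570 CPM. The 5 epithelial markers summed to 142 to 159 CPM in WT and 2.75 to 3.69 CPM in Yme1l-/- libraries, nearly all of it Krt18 and Krt19. Epcam was at 1.29 and 0.0848 CPM and was called lower as both keratins were, while Cdh1 and Krt8 were near 0 in both. Summed endothelial (0.888 to 1.44 against 1.67 to 2.00 CPM), immune (1.86 to 2.08 against 4.03 to 4.71 CPM) and pluripotent cell markers (0.272 to 0.550 against 0.236 to 0.635 CPM) were low, with Adgre1, Cd3e and Zfp42 at 0 throughout. The median log2 fold change also differed by chromosome, from -0.44 on chromosome 12 to 0.59 on chromosome 15. The locus of Xist, the RNA that coats the inactive X chromosome, which was named after its values were seen, held 528 to 772 CPM in WT and 0.0393 to 0.218 CPM in Yme1l-/- libraries. The part of these differences between the cell populations in the results below was not tested, but the change of each locus was also computed relative to its chromosome's median, and that value is given where the call or direction differs. In a bulk culture, fewer cells of a kind and less RNA per cell cannot be told apart.

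The set did not move as a block. Of the 38 tested loci, 30 were called different between the genotypes (edgeR's quasi-likelihood test, Benjamini-Hochberg adjusted p under 0.05), 11 of them higher and 19 lower in Yme1l-/- cells. That is 78.9% of the set. Over all 13867 loci the share was 67.7%, with 33.6% called higher and 34.1% called lower. The median log2 fold change (Yme1l-/- over WT) was -0.15 over the set and -0.00 over all loci. At least 2-fold changes were found at 7 loci (18.4%), 5 upward (Pfkm, Ldhb, Pfkfb3, Ndrg1 and Adm) and 2 downward (Slc16a3 and Ak4), a share close to the 17.7% of all loci that passed the same limit, 9.10% upward and 8.63% downward. With a library left out, from 5 loci (without WT replicate 1) to 8 loci (without WT replicate 3) passed that limit. With each chromosome's median removed, 6 loci passed it, 3 upward (Ldhb, Pfkfb3 and Adm) and 3 downward (Slc16a3, Ak4 and Pfkp). The share of all loci that passed it was not computed on that scale. The libraries of the genotypes did not overlap at 31 of the 38 loci, beside 71.9% of all loci. With each chromosome's median removed, 29 of the loci were called (9 higher, 20 lower), beside 62.8% of the 13829 loci with a known chromosome.

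**Figure D1:**
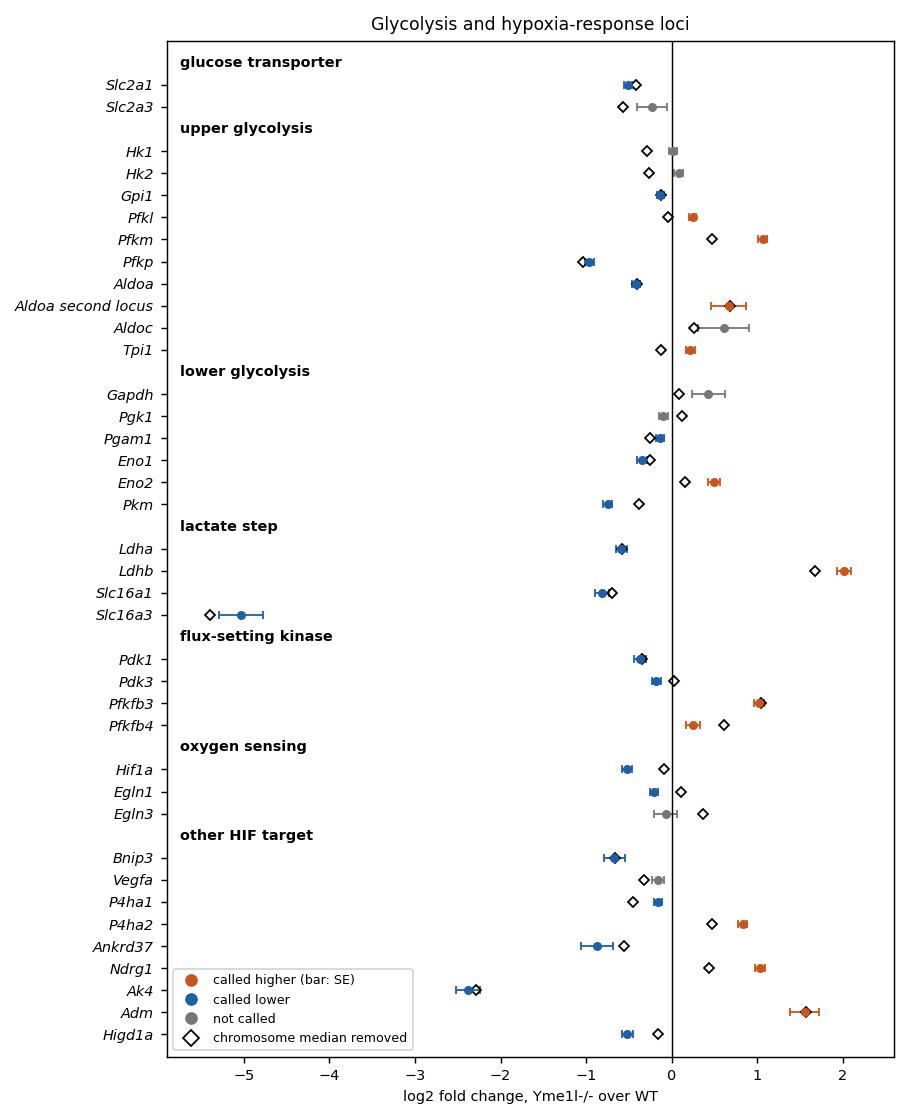
Log2 fold change (Yme1l-/- over WT, horizontal axis) of each tested glycolysis and hypoxia-response locus, grouped by role, with bars for ± 1 standard error of edgeR's fit and open diamonds for the value after the chromosome's median is removed. Slc16a3 at -5.04 and Ak4 at -2.38 lie far to the left and Ldhb at 2.02 far to the right, while most other loci lie within 1 unit of 0.

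GLUT1, the transporter encoded by Slc2a1, is the usual route of glucose into fibroblasts. Slc2a1 held 91, 92.4 and 83.2 CPM in WT and 62.9, 61.1 and 62.8 CPM in Yme1l-/- libraries. All 3 Yme1l-/- libraries lay below every WT library, and the transcript fell by 0.51 ± 0.05 (log2, SE, edgeR adjusted p = 4.12e-06), to 70.1% of WT. Slc2a3, which encodes the high-affinity transporter GLUT3, was far less abundant. Per transcript length, in the authors' FPKM (fragments per kilobase of transcript, scaled to the library, 1 combined value per genotype), WT cells held 32.4 of Slc2a1 and 0.932 of Slc2a3. Slc2a3 differed by -0.23 ± 0.18 on the log2 scale with overlapping libraries (edgeR adjusted p = 0.277), and by -0.57 relative to chromosome 6, whose median was 0.34 (edgeR adjusted p = 0.0161).

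In the upper part of the pathway, from hexokinase to triose phosphate isomerase, 4 of 10 loci rose, 3 fell and 3 were not called. The share called was 70%, beside 67.7% of all loci. The hexokinases, which trap glucose as glucose phosphate, were not called. Hk2, the isozyme that HIF is known to induce, held 84.7, 90.6 and 83.7 CPM in WT and 87.5, 98.2 and 87.7 CPM in Yme1l-/- libraries. The ranges overlapped, and the log2 difference was 0.08 ± 0.06 (edgeR adjusted p = 0.248). Hk1, the constitutive isozyme, was at 146 ± 3.36 and 147 ± 6.67 CPM (mean ± SD, n = 3 per genotype), a log2 difference of 0.01 ± 0.05 (edgeR adjusted p = 0.837). Both lie on chromosomes whose transcripts were higher overall in Yme1l-/- cells, and relative to those medians both were lower, Hk2 by -0.26 (edgeR adjusted p = 0.00187) and Hk1 by -0.28 (edgeR adjusted p = 0.000313).

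Phosphofructokinase, the committed step of glycolysis, showed an exchange of isozymes. Pfkm, which encodes the muscle type (chr15:98038744-98132447), held 32.4, 32.3 and 33.5 CPM in WT and 65.3, 68.1 and 71.5 CPM in Yme1l-/- libraries. It rose in all 3 Yme1l-/- libraries, by 1.06 ± 0.05 on the log2 scale (edgeR adjusted p = 1.12e-08), and by 0.47 relative to chromosome 15, which had the highest median of any chromosome. Pfkp, the platelet type, held 52.9, 53.6 and 56.8 CPM in WT and 27.3, 28.3 and 28.0 CPM in Yme1l-/- libraries. It moved the opposite way, with a fall of 0.96 ± 0.05 (edgeR adjusted p = 2.29e-08) that was -1.04 relative to chromosome 13. Pfkl, the liver type, was the most abundant of the 3 per length (75.9 FPKM in WT, beside 11.9 for Pfkm and 16.7 for Pfkp). It was at 231 ± 7.21 CPM in WT and 274 ± 2.99 CPM in Yme1l-/- cells. Its rise of 0.25 ± 0.04 (edgeR adjusted p = 0.000258) was not called relative to chromosome 10, where it became -0.05 (edgeR adjusted p = 0.33).

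Without removal of chromosome medians, the loci of the neighbouring steps changed less than Pfkm and Pfkp, but both Aldoa loci changed more than Pfkl. Aldoa, the aldolase that splits the sugar into triose phosphates, fell by 0.42 ± 0.05 on the log2 scale, from 493 ± 23.9 to 368 ± 5.24 CPM (edgeR adjusted p = 1.17e-05). Its additional locus in the table held 28 to 46 fragments per WT library and 66 to 96 per Yme1l-/- library and was called higher (log2 0.66 ± 0.20, edgeR adjusted p = 0.0135), at less than 1% of the level of the main locus. Aldoc, the brain-type aldolase, was near the lower limit of the test with 15 to 58 fragments per library, and its log2 difference of 0.61 ± 0.30 was not called (edgeR adjusted p = 0.0914). Without WT replicate 1 it was 0.87 (edgeR adjusted p = 0.0368), and relative to chromosome 11 it was 0.25 (edgeR adjusted p = 0.481). Gpi1, which converts glucose phosphate to fructose phosphate, fell by 0.14 ± 0.04 (edgeR adjusted p = 0.0114), to 91% of WT, a call that was lost without Yme1l-/- replicate 3 (edgeR adjusted p = 0.0614). Tpi1, which interconverts the triose phosphates, rose by 0.21 ± 0.05 (edgeR adjusted p = 0.00399), but relative to chromosome 6 it was lower, at -0.13 (edgeR adjusted p = 0.0437).

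In the lower part, from glyceraldehyde phosphate dehydrogenase to pyruvate kinase, 1 of 6 loci rose, 3 fell and 2 were not called. Here 66.7% were called, beside 67.7% of all loci. Pkm, whose pyruvate kinase makes the pyruvate and which was the most abundant transcript of the set by the authors' FPKM (1282 in WT), stood at 3024, 2861 and 2937 CPM in WT and at 1851, 1739 and 1661 CPM in Yme1l-/- libraries. The groups lay far apart, with a fall of 0.75 ± 0.06 (edgeR adjusted p = 3.78e-07), to 59.5% of WT, and of -0.39 relative to chromosome 9. Counts of the locus cannot tell the PKM1 and PKM2 splice forms apart. Eno1, the ubiquitous enolase, fell by 0.35 ± 0.06, from 1432 ± 52.8 to 1123 ± 72.5 CPM (edgeR adjusted p = 0.000268). Eno2, the neuronal enolase, rose by 0.49 ± 0.07, from 14.4 ± 0.698 to 20.2 ± 1.24 CPM (edgeR adjusted p = 0.000104), a call that was not kept relative to chromosome 6 (log2 0.15, edgeR adjusted p = 0.0953). In FPKM the authors' WT values were 756 for Eno1 and 8.90 for Eno2.

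Pgam1, the phosphoglycerate mutase, fell by 0.14 ± 0.04 (edgeR adjusted p = 0.0159), to 90.7% of WT. That call was lost without WT replicate 1 or 2 or Yme1l-/- replicate 2 or 3 (edgeR adjusted p from 0.0515 to 0.0734), while relative to chromosome 19 the fall was -0.25 (edgeR adjusted p = 0.000596). Pgk1, the phosphoglycerate kinase and a classical HIF target, was at 773 ± 20.2 CPM in WT and 723 ± 27.3 CPM in Yme1l-/- cells. Its libraries did not overlap, but the log2 difference of -0.10 ± 0.05 was not called (edgeR adjusted p = 0.107), and it was 0.11 relative to the X chromosome. Without Yme1l-/- replicate 1 it was called, at -0.13 (edgeR adjusted p = 0.0477). Gapdh, often used as a reference transcript, varied between replicates, at 126, 110 and 93.5 CPM in WT and 113, 163 and 166 CPM in Yme1l-/- libraries. Yme1l-/- replicate 1 lay within the WT range, and the log2 difference of 0.43 ± 0.19 was not called (edgeR adjusted p = 0.103). Without that library it was 0.58 (edgeR adjusted p = 0.0101). Gapdh also had 75 near-identical copies among the loci, which held 19.1% to 27.9% of the fragments of the family, and with these added the log2 difference was 0.39 ± 0.13 (edgeR adjusted p = 0.0341). Relative to chromosome 6 it was 0.09 (edgeR adjusted p = 0.716). For the other members with such copies the share was at most 6.90%, and adding them changed no call.

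All 4 genes of the lactate step were called, 1 higher and 3 lower, beside 67.7% of all loci called. They held both the largest rise and the largest fall of the set. Ldhb encodes the heart-type subunit of lactate dehydrogenase, which favours the conversion of lactate to pyruvate, and lies at chr6:142490249-142507957. It held 4.74, 4.92 and 5.45 CPM in WT and 20.5, 19.9 and 20.8 CPM in Yme1l-/- libraries. Every Yme1l-/- library was more than 3-fold above every WT library, and the rise was 4.04-fold (log2 2.02 ± 0.08, edgeR adjusted p = 3.51e-09), or 1.68 relative to chromosome 6. Ldha, the muscle-type subunit that favours lactate formation (chr7:46841475-46855627), held 1200, 1183 and 1108 CPM in WT and 859, 738 and 725 CPM in Yme1l-/- libraries. It was lower in all 3 Yme1l-/- libraries, with a fall of 0.59 ± 0.07 (edgeR adjusted p = 1.62e-05), to 66.5% of WT. Ldha remained the predominant gene of the pair per length, with authors' FPKM values of 536 for Ldha and 18.4 for Ldhb in Yme1l-/- cells.

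Both lactate transporters of the set fell. Slc16a3 encodes MCT4, the exporter of strongly glycolytic cells and a known HIF target, and lies at chr11:120948480-120960868. It held 11.4, 13.9 and 9.71 CPM in WT (377, 454 and 317 fragments) and 0.343, 0.516 and 0.196 CPM in Yme1l-/- libraries (12, 26 and 10 fragments). Few fragments were left in any Yme1l-/- culture, and the level was 3.05% of WT (log2 -5.04 ± 0.26, edgeR adjusted p = 4.81e-08), and the fold change lay between -5.48 and -4.71 on the log2 scale under all alternatives. Slc16a1, which encodes the broadly expressed MCT1, held 151, 164 and 133 CPM in WT and 92.6, 84.2 and 78.0 CPM in Yme1l-/- libraries. It fell by 0.82 ± 0.08 (edgeR adjusted p = 1.22e-05), to 56.8% of WT, so that the lowest WT library was still above the highest Yme1l-/- library. Per length the WT cells had held 33.9 FPKM of Slc16a1 and 6.85 FPKM of Slc16a3.

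HIF binds DNA at short motifs with the core ACGTG or GCGTG, so the promoters of the set were searched for these letters on both strands in windows from 250 bases before to 50 bases after each RefSeq transcription start (GRCm38.p6). A window was given for 36 of the 38 genes, all but Ndrg1 and Slc2a3, and 33 of the 36 held at least 1 match in some window (91.7%, beside 68.1% of 9400 tested genes). By single windows it was 44 of 53 (83%), beside 62% of windows of tested loci and 43.8% of all 32851 windows. ACGTG was in 54.7% of the windows of the set, beside 25.3% for tested loci and 19.6% of all windows, and GCGTG was in 62.3%, beside 50.7% and 32.4%. ACGTG overlaps CACGTG, the E-box that many other factors bind, which was in 7.20% of all windows and counts on both strands. A match was present in 18 of 19 genes called lower, in 7 of 9 called higher and in 7 of 7 not called, with Aldoa counted by its main locus. A match describes the letters and is not a measured binding site. The 250 bases before the start are shown, with matches in capitals, for Slc16a3 and Ldhb, the largest fall and the largest rise of the set, for Ldha, the partner of Ldhb, and for Adm, which rose most among the HIF targets of the set. Where a gene had several windows, the first is shown.
Slc16a3 (chr11:120948817-120949066, plus strand): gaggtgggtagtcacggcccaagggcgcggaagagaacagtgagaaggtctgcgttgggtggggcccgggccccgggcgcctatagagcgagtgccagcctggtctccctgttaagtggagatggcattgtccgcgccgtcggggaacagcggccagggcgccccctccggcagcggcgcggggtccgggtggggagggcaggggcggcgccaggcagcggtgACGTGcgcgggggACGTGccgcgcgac
Ldha (chr7:46845554-46845803, plus strand): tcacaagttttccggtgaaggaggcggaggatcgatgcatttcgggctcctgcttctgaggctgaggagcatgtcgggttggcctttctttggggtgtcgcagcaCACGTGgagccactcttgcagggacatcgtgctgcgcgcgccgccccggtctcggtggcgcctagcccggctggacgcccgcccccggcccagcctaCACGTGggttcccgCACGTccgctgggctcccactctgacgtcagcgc
Ldhb (chr6:142507958-142508207, minus strand): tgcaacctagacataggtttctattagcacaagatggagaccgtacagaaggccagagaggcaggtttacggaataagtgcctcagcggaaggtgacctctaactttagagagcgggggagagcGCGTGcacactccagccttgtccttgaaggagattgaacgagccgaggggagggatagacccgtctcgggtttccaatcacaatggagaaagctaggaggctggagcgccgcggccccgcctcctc
Adm (chr7:110627407-110627656, plus strand): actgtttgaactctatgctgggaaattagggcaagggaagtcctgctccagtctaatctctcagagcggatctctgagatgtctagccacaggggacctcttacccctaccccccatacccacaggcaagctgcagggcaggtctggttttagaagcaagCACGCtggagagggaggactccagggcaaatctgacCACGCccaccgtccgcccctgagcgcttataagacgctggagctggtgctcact
The Slc16a3 promoter held 2 ACGTG matches within 30 bases of the start. The 250 bases of Ldha shown held 5 matches, 4 of which are the 2 strands of 2 CACGTG boxes, and the window of another Ldha start (chr7:46846832-46847081), not shown, held a GCGTG before the start. Over both Ldha windows, with the 50 bases after each start, there were 5 matches of ACGTG and 2 of GCGTG. In Ldhb the only match was a GCGTG, and Adm held 2 matches of GCGTG on the opposite strand. The genes that fell and those that rose both carried matches.

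The 4 kinases that set the flux were all called, 2 higher and 2 lower, beside 67.7% of all loci called. Pfkfb3 makes the sugar bisphosphate that activates phosphofructokinase allosterically, and lies at chr2:11471433-11554077. It held 14.0, 15.3 and 14.3 CPM in WT and 29.4, 30.4 and 28.6 CPM in Yme1l-/- libraries. Its level was about 2-fold that of WT in each Yme1l-/- library (log2 1.02 ± 0.06, edgeR adjusted p = 9.02e-08). Its relative Pfkfb4 rose by 0.25 ± 0.08, from 9.84 ± 0.0392 to 11.7 ± 0.494 CPM (edgeR adjusted p = 0.0159), and by 0.61 relative to chromosome 9. Pdk1, a HIF-induced kinase that switches off pyruvate dehydrogenase, held 37.9, 42.9 and 36.4 CPM in WT and 28.7, 30.5 and 31.5 CPM in Yme1l-/- libraries. It was below WT in all 3 libraries, with a fall of 0.37 ± 0.07 (edgeR adjusted p = 0.000578). Pdk3 fell by 0.18 ± 0.06 (edgeR adjusted p = 0.0147), but relative to the X chromosome, on which it lies, it was at 0.03 (edgeR adjusted p = 0.658). The call was also lost without WT replicate 3 (edgeR adjusted p = 0.0618) or Yme1l-/- replicate 2 (edgeR adjusted p = 0.0787).

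**Figure D2:**
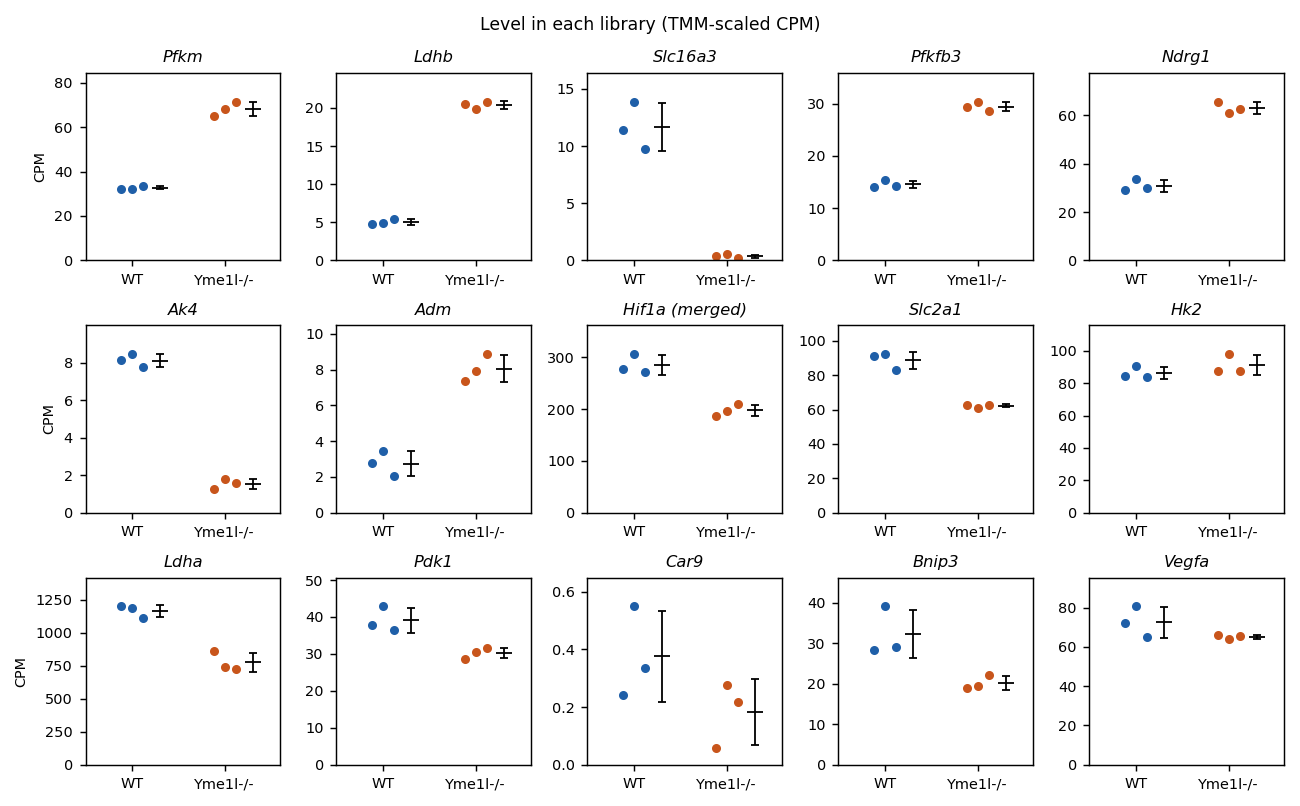
CPM of 15 glycolysis and hypoxia-response genes in each library (points), with the mean and SD of the 3 WT and 3 Yme1l-/- cultures. Vertical axes differ between panels, and libraries overlap for Hk2, Car9 and Vegfa, while Slc16a3 and Ak4 lie near 0 in Yme1l-/- cells.

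Among the genes of oxygen sensing, 2 of 3 fell, that is 66.7% called beside 67.7% of all loci. The merged locus of Hif1a (chr12:73843039-73988966), which encodes the oxygen-regulated HIF subunit, held 278, 307 and 271 CPM in WT and 187, 197 and 209 CPM in Yme1l-/- libraries. The locus was lower in all 3 Yme1l-/- libraries, with a fall of 0.53 ± 0.06 (edgeR adjusted p = 9.59e-06), to 69.4% of WT. Chromosome 12 had the lowest median of all chromosomes, -0.44, and relative to it the difference was -0.09 and not called (edgeR adjusted p = 0.235). Egln1, the main prolyl hydroxylase that marks HIF-1α, fell by 0.21 ± 0.05 (edgeR adjusted p = 0.00220), but was at 0.10 relative to chromosome 8 (edgeR adjusted p = 0.074). Egln3, the hydroxylase that HIF itself induces, was at 8.40, 11.2 and 8.12 CPM in WT and 9.63, 8.79 and 8.05 CPM in Yme1l-/- libraries. These ranges overlapped (log2 -0.07 ± 0.13, edgeR adjusted p = 0.648), and relative to chromosome 12 it was higher, at 0.37 (edgeR adjusted p = 0.0300). For each of the 3 genes the call thus differed between the scales.

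Of the 10 further HIF targets, 3 rose, 5 fell, Vegfa was not called and Car9 was not tested. Of the 9 tested, 88.9% were called, beside 67.7% of all loci. Carbonic anhydrase 9, the product of Car9 and one of the most oxygen-dependent HIF targets, had 8, 18 and 11 fragments in WT and 2, 14 and 11 in Yme1l-/- libraries. These counts are near the limit of detection in both genotypes, with overlapping libraries of 0.242, 0.550 and 0.337 against 0.0572, 0.278 and 0.216 CPM. Vegfa, the angiogenic growth factor, held 72.1, 80.7 and 65.1 CPM in WT and 65.9, 63.9 and 65.3 CPM in Yme1l-/- libraries. The lowest WT library lay among those of Yme1l-/- cells, and the log2 difference was -0.16 ± 0.07 (edgeR adjusted p = 0.0608), or -0.23 without WT replicate 3 (edgeR adjusted p = 0.00524). Relative to chromosome 17 it was -0.33 (edgeR adjusted p = 0.00175).

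The largest fall among these targets was that of Ak4, a mitochondrial adenylate kinase (chr4:101419277-101466995), at 8.13, 8.46 and 7.75 CPM in WT and 1.26, 1.77 and 1.59 CPM in Yme1l-/- libraries. All Yme1l-/- libraries lay well under every WT library, at 19.2% of WT (log2 -2.38 ± 0.14, edgeR adjusted p = 5.61e-08). Bnip3, a receptor for the removal of mitochondria by autophagy, held 28.3, 39.1 and 29.2 CPM in WT and 18.9, 19.4 and 22.2 CPM in Yme1l-/- libraries. WT replicate 2 stood above the rest, and Bnip3 fell by 0.67 ± 0.13 (edgeR adjusted p = 0.00129), or by 0.51 without that library (edgeR adjusted p = 0.000454). Higd1a, which encodes a small mitochondrial protein induced by hypoxia, fell by 0.52 ± 0.06, from 49.7 ± 3.63 to 34.7 ± 1.93 CPM (edgeR adjusted p = 2.61e-05), a call not kept relative to chromosome 9 (log2 -0.16, edgeR adjusted p = 0.0562). Ankrd37, a short ankyrin-repeat gene, fell by 0.87 ± 0.19, from 2.65 ± 0.543 to 1.45 ± 0.0696 CPM (edgeR adjusted p = 0.00150), or by -0.555 relative to chromosome 8.

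Upward, Adm stood out among the targets. It encodes adrenomedullin, a vasodilator peptide, and lies at chr7:110626281-110639358. It held 2.75, 3.45 and 2.02 CPM in WT and 7.37, 7.89 and 8.87 CPM in Yme1l-/- libraries. Every Yme1l-/- library exceeded every WT library by more than 2-fold, and the rise was 2.94-fold (log2 1.55 ± 0.17, edgeR adjusted p = 9.06e-06). Ndrg1, a stress-responsive gene (chr15:66929321-67013039), held 29.2, 33.7 and 29.8 CPM in WT and 65.6, 60.9 and 62.8 CPM in Yme1l-/- libraries. It rose in all 3 by about the same amount (log2 1.03 ± 0.06, edgeR adjusted p = 7.35e-08), which was 0.44 relative to chromosome 15.

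The catalytic subunits of the collagen prolyl hydroxylase, both HIF targets, moved apart. P4ha2 rose by 0.83 ± 0.05 on the log2 scale, from 41.3 ± 1.65 to 73.4 ± 3.73 CPM (edgeR adjusted p = 1.39e-07), and by 0.47 relative to chromosome 11. P4ha1, the more abundant subunit, fell by 0.16 ± 0.05, from 177 ± 10.3 to 158 ± 4.92 CPM (edgeR adjusted p = 0.0146), a call lost without WT replicate 1 (edgeR adjusted p = 0.0695). Relative to chromosome 10 it was -0.46 (edgeR adjusted p = 1.6e-05). By the authors' FPKM the WT values were 60.4 for P4ha1 and 20.2 for P4ha2, and the Yme1l-/- values were 54.1 and 36.7.

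WT replicate 2 was the highest WT library at 9 of the 12 tested loci of oxygen sensing and HIF targets, and at 12 of 26 glycolysis loci, beside 31.8% of all loci. In a separate list of other HIF targets it was the highest at 20 of 37. The same library stood apart in fibroblast markers, with 301 CPM of Col3a1 beside 86.3 and 91.1 CPM in the other WT libraries and 7.85 CPM of Dcn beside 1.57 and 1.56 CPM, and it was the highest WT library for 5 of the 10 tested. Their part in the result was not tested. Without that library Slc16a3 stood at -4.90, Pdk1 at -0.30, the Hif1a locus at -0.47 and Adm at 1.75 on the log2 scale, and 29 of the 38 loci were called, beside 63.5% of 14120 loci tested without it.

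The isozymes of a step differed in how they moved, so the share of 1 isozyme in the fragments of the 2 or 3 members of the set that share the step was computed in each library (13 shares, exact two-sided permutation test over the 6 libraries). With 3 libraries a genotype the smallest p this test can give is 0.1 (0.163 adjusted over the 13 shares by the Benjamini-Hochberg method), so no share could pass 0.05. The libraries of the genotypes did not overlap, at that smallest p, for 8 of the 13 shares, and over all loci the levels of 71.9% did not overlap, so that count is no more than the background. Pfkm made up 10.1%, 10.03% and 10.7% of phosphofructokinase fragments in WT and 17.6%, 18.5% and 19.2% in Yme1l-/- libraries. For Pfkp the values were 16.6%, 16.6% and 18.1% in WT and 7.39%, 7.70% and 7.51% in Yme1l-/- libraries. The share of Pfkl, at 72.6 ± 1.25% and 74.0 ± 0.848%, overlapped (exact permutation p = 0.3).

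Ldhb made up 0.433 ± 0.0506% of lactate dehydrogenase fragments in WT and 2.58 ± 0.234% in Yme1l-/- cells. Slc16a3 made up 7.20 ± 0.526% of the fragments of the lactate transporters in WT and 0.410 ± 0.182% in Yme1l-/- cells, which by the authors' FPKM, per length, was 16.8% and 1.85%. Nearly all fragments of the pair in Yme1l-/- cells were thus from Slc16a1. P4ha2 made up 18.9 ± 0.428% of the pair with P4ha1 in WT and 31.7 ± 1.59% in Yme1l-/- cells, and Pfkfb4 made up 40.4 ± 1.16% and 28.5 ± 0.844% of the pair with Pfkfb3. The shares of Eno2 (0.998% to 1.78%) and Aldoc (0.159% to 0.331%) were small throughout. The shares of Slc2a3, Hk2, Egln3 and Pdk3 in their pairs overlapped between the genotypes (exact permutation p from 0.2 to 0.4). These shares leave out genes of the same families that are not in the set. With Pdk2 and Pdk4 in the sum, Pdk3 made up 50.1%, 47.5% and 52.2% of the kinase fragments in WT and 39.5%, 38.2% and 39.7% in Yme1l-/- libraries, which did not overlap. With Pfkfb1 and Pfkfb2 (whose locus also holds Gm29427) in the sum, Pfkfb4 made up 26.5 ± 1.35% and 21.8 ± 0.928%. With Egln2 in the sum, Egln3 made up 6.88 ± 1.22% and 6.91 ± 0.416%, and with the further Slc2a genes Slc2a3 made up 2.70 ± 0.446% and 2.88 ± 0.444%, both still overlapping. For Eno2 with the other enolases the values were 0.986 ± 0.0659% and 1.72 ± 0.2%, which did not overlap.

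**Figure D3:**
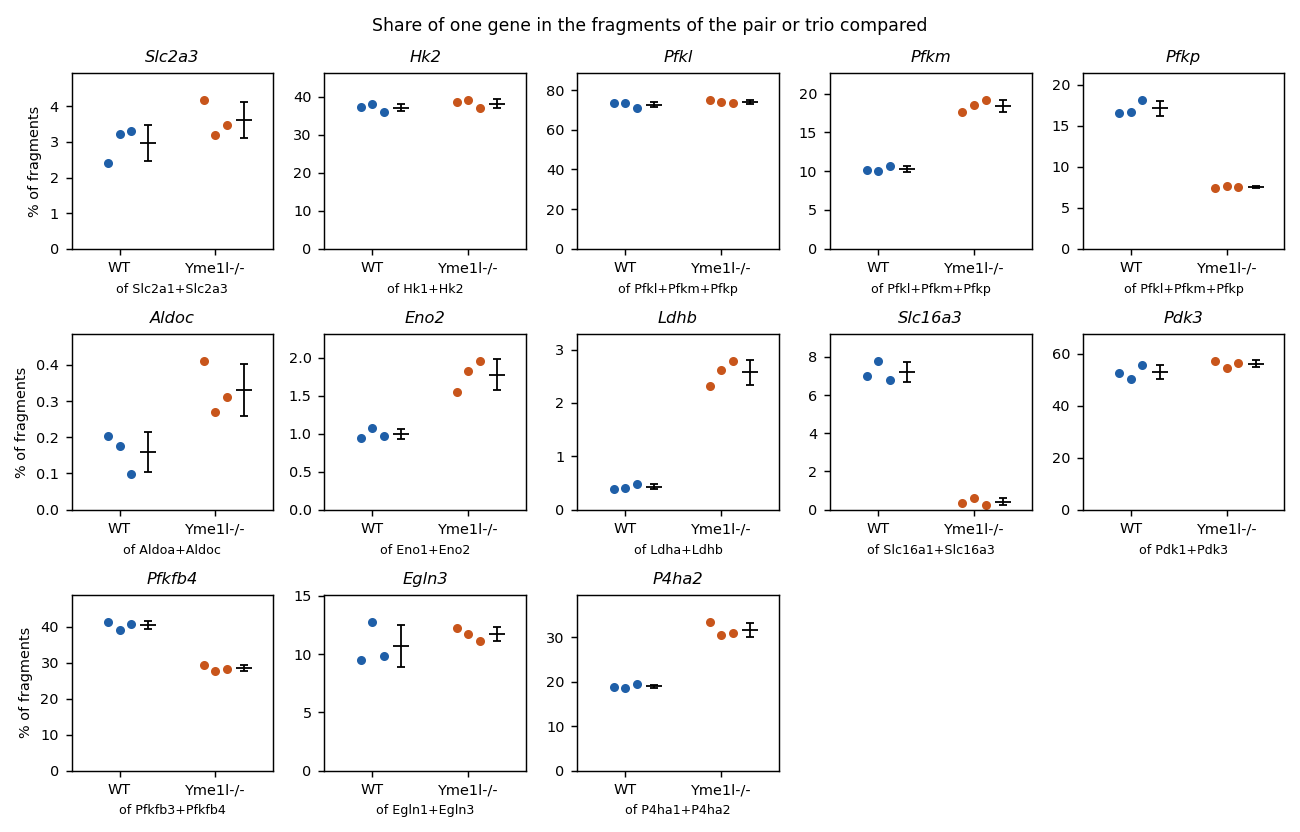
Share of an isozyme in the counts of the members of the set that share its step, in percent, in each of the 3 WT and 3 Yme1l-/- libraries (points) with the mean and SD. Pfkm and Pfkp move in opposite directions around a Pfkl share of 72.6% and 74.0%, and the Slc16a3 share goes from 7.20% to 0.410%.

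Summed over the 17 enzyme genes from hexokinase to lactate dehydrogenase, the WT libraries held 9003, 8735 and 8600 CPM and the Yme1l-/- libraries 7188, 6841 and 6641 CPM. The sum was lower in every Yme1l-/- library, at 78.5% of WT, although 5 of the enzyme genes rose (Pfkl, Pfkm, Tpi1, Eno2 and Ldhb). Neither this sum nor the isozyme shares were computed relative to chromosome medians. Pkm, Eno1 and Ldha alone made up 63.0 ± 0.643% of the sum in WT and 52.9 ± 1.3% in Yme1l-/- cells (SD, n = 3 per genotype). The other 14 genes summed to 3244 ± 79.4 CPM in WT and 3243 ± 40.4 CPM in Yme1l-/- cells, a difference smaller than the spread between libraries. Falls and rises offset each other in that sum, as for Aldoa (493 to 368 CPM) and Tpi1 (699 to 811 CPM).

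Genes of the same pathways outside the set were read from 4 lists. Of 26 tested among 39 other genes of glycolysis and pyruvate use, 15 rose, 5 fell and 6 were not called (median log2 0.30). That is 76.9% called, beside 67.7% of all loci, and 57.7% higher, beside 33.6%. Pdk4, a kinase that blocks pyruvate dehydrogenase in fasting muscle, held 0.725, 1.68 and 0.858 CPM in WT and 23.5, 22.1 and 22.9 CPM in Yme1l-/- libraries. All Yme1l-/- libraries lay far above those of WT, a log2 rise of 4.39 ± 0.21 (edgeR adjusted p = 8.92e-08). By the authors' FPKM the Yme1l-/- value was 6.68 for Pdk4 and 13.4 for Pdk1. Pdk2 rose by 0.88 ± 0.15 (edgeR adjusted p = 0.000280), or by 0.53 relative to chromosome 11, while Pdp1, the phosphatase that reactivates pyruvate dehydrogenase, fell by 0.94 ± 0.08 (edgeR adjusted p = 8.56e-07). Eno3, the muscle enolase, rose by 1.04 ± 0.07, from 17.9 ± 0.778 to 36.8 ± 3.00 CPM (edgeR adjusted p = 2.03e-07), or by 0.68 relative to chromosome 11. Of the pyruvate dehydrogenase kinases, Pdk1 was thus lower and Pdk2 and Pdk4 were higher on both scales, while the fall of Pdk3 was not kept relative to its chromosome.

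In the pentose phosphate pathway, which branches off at glucose phosphate, 5 of 8 genes rose, 1 fell and 2 were not called (median log2 0.20), that is 75% called beside 67.7% of all loci. H6pd, the dehydrogenase of the endoplasmic reticulum, rose by 0.54 ± 0.04 and Taldo1, the transaldolase, by 0.40 ± 0.07, while Tkt, the transketolase, fell by 0.35 ± 0.05, which was -0.18 relative to chromosome 14. Rpia, the ribose phosphate isomerase, rose by 0.25 ± 0.06 but was at -0.09 relative to chromosome 6.

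Of the other genes of the HIF pathway, 9 of 11 symbols had a locus, and of the 8 tested 5 rose, 1 fell and 2 were not called (median log2 0.37), again 75% called beside 67.7% of all loci. Arnt2, a partner of the HIF α subunits known mainly from neurons, rose by 1.97 ± 0.09, from 8.54 ± 1.03 to 33.5 ± 2.65 CPM (edgeR adjusted p = 1.01e-08). Vhl, the recognition subunit of the ligase that degrades HIF-1α, rose by 0.75 ± 0.05 (edgeR adjusted p = 1.87e-07), or by 0.40 relative to chromosome 6. Rbx1, another subunit of that ligase, rose by 0.70 ± 0.04, of which 0.11 was left relative to chromosome 15. Cul2, the scaffold of the ligase, fell by 0.41 ± 0.04 (edgeR adjusted p = 9.35e-06), which was -0.21 relative to chromosome 18.

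Of 37 tested among 40 other HIF targets, 10 rose, 15 fell and 12 were not called (median log2 -0.08), 1 of the falls being that of a locus that Epo shares with Gnb2. The share called, 67.6%, was close to that of all loci, 67.7%. Angptl4, a lipase inhibitor, held 9.003, 13.4 and 8.12 CPM in WT and 0.657, 0.773 and 0.805 CPM in Yme1l-/- libraries. It fell to 7.42% of WT (log2 -3.75 ± 0.21, edgeR adjusted p = 6.44e-08). Loxl2, which crosslinks collagen, fell by 3.58 ± 0.07, from 49.96 ± 1.36 to 4.16 ± 0.192 CPM (edgeR adjusted p = 9.65e-12). Errfi1, a feedback inhibitor of the EGF receptor, fell by 2.83 ± 0.20 (edgeR adjusted p = 7.17e-05) and Edn1, the vasoconstrictor endothelin, fell to 40.7% of WT (edgeR adjusted p = 1.24e-05).

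**Figure D4:**
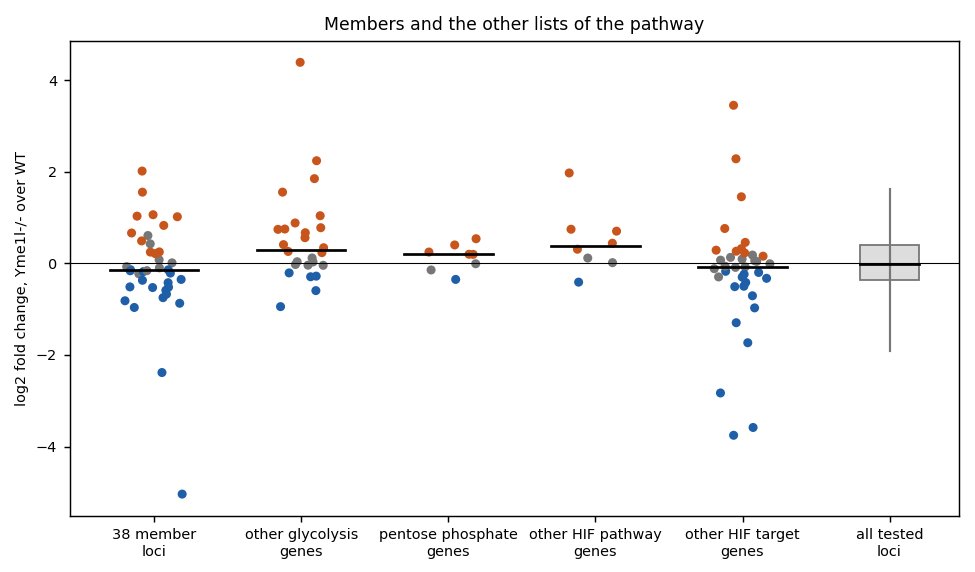
Log2 fold change (Yme1l-/- over WT, vertical axis) of each tested locus of the glycolysis and hypoxia-response set and of the 4 further pathway lists (points), beside a box for all 13867 tested loci (box from the lower to the upper quartile, -0.37 to 0.41, whiskers from the 5th to the 95th percentile, -1.91 to 1.63). Pdk4 at 4.39 is the highest point, and Slc16a3 at -5.04 the lowest.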

How the data were processed

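Mapping was done by the authors on mm10 with Ensembl annotation. Per the labels, HISAT2 2.0.4, StringTie 1.3.3 and Cuffdiff 2.2.1 were used on stranded, paired-end libraries. The deposited table of counts holds raw fragment counts per locus. The FPKM values deposited by the authors are 1 combined value per genotype. They served to compare levels between genes, and no test between the genotypes used them. Their ratios between genotypes can differ from those of the counts, as for Pdk1 (14.7 in WT, 13.4 in Yme1l-/-) and Slc2a3 (0.932 and 0.966). The same table's log2 ratios and p-values were not used. How fragments mapping to several places were counted is not given in the sources used here.

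Loci were kept with filterByExpr (minimum count 10), scaled with TMM and compared by the two-sided quasi-likelihood test of edgeR 4.0.16 in R 4.3.3 (robust, no covariates), with Benjamini-Hochberg adjustment over all 13867 loci. Errors are standard errors for fold changes, from the test statistic, and SD for levels. Near-identical copies were loci that matched a member's transcript over at least 200 bases at 95% identity in BLAST 2.17.0. Only pseudogenes and Eno1b were taken, and members and loci shared by several genes were left out. The code was tested on simulated data in which few loci changed, equally up and down. That does not test scaling or error control where most loci differ, as here. Alternatives were RLE and upper-quartile scaling, DESeq2 1.42.0, no filter, a minimum of 10 counts in each sample, removal of chromosome medians, a block for the replicate number, and leaving out each library. Adding copies, and adding other genes of a family to the isozyme shares, was chosen after seeing the data.

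The members and lists were chosen with earlier results of these data known. Named were all members and, from each list, the 4 called loci of at least 5 CPM with the largest changes, with values by library for members called at 2-fold or more and for Hif1a, Slc2a1, Hk2, Ldha, Pdk1, Car9, Bnip3 and Vegfa. Library values of other genes were added after they were seen.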

Additional observations from a re-analysis of the deposited data

How the results depend on the processing

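Direction and call were kept by 28 of 38 member loci under all alternatives other than removal of chromosome medians, and by 20 of 38 when that was included. DESeq2, RLE scaling and a minimum of 10 counts in every sample changed none of the 55 named results. Upper-quartile scaling moved the median of the set to -0.0905 and ended the calls of Gpi1, Pgam1, Pdk3 and P4ha1 (edgeR adjusted p = 0.117, 0.13, 0.0847 and 0.0867). With chromosome medians removed, directions turned for Hk1 (-0.28), Hk2 (-0.26), Pfkl (-0.0501), Tpi1 (-0.13), Pgk1 (0.11), Pdk3 (0.031), Egln1 (0.10), Egln3 (0.37) and Rpia (-0.0928). With a library left out, Hk1 ranged from -0.0143 (without Yme1l-/- replicate 2) to 0.0488 and Egln3 from -0.1588 to 0.0895 (without WT replicate 2), and Hk1 was also below 0 without WT replicate 1. With other genes of the family added to the sum, chosen after seeing the data, the difference in share was -10.8 percentage points for Pdk3 (3.23 in its pair) and -4.66 for Pfkfb4 (-11.9 in its pair). In the pentose phosphate list 2 genes rather than 1 were lower with no filter, and 1 to 2 were when a library was left out. Vegfa was also called with no filter, at -0.16 (edgeR adjusted p = 0.0144). Leaving out a library gave 28 to 32 members called, and calls of Aldoc, Gapdh, Gpi1, P4ha1, Pdk3, Pgam1, Pgk1 and Vegfa depended on it. The deviations of same-numbered libraries from their genotype's mean had correlations of 0.198, -0.158 and 0.0482. With 3 libraries a genotype these deviations are not independent, so they cannot settle whether the numbers pair the cultures. With the replicate number as a block, 32 members and 9794 loci were called, Aldoc and Vegfa were gained, and the pentose phosphate list had 2 lower. Counts of under 100 fragments, as for Aldoc, Aldoa's additional locus and Slc16a3 in Yme1l-/- cells, carry the widest errors, and depth covers counting error only.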
